A study of Mus musculus with 4 samples.

Results

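The BTB zinc finger transcription factors carrying a Zbtb symbol were followed in T cells from mouse spleen. A gene was a member when its symbol was Zbtb followed by a number and at most 1 letter. Zbtb16 was left out by the rule. This gave 36 members among 22478 gene symbols, each with a value in all 4 libraries. The members lie on 15 chromosomes, with 6 of them on chromosome 4.

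RNA of C57BL/6 spleen cells was sequenced in 4 libraries, with 1 library in each group. Invariant natural killer T (iNKT) cells, which recognise lipid bound to CD1d, came from wild-type mice (WT iNKT) and from mice of genotype Ezh2fl/fl CD4-Cre (KO iNKT). CD4+ T cells with high CD44, the antigen-experienced fraction, came from the same genotypes (WT CD44hi and KO CD44hi). The CD4-Cre transgene acts from the CD4-expressing thymocyte stage onward, and Ezh2 encodes the methyltransferase of Polycomb repressive complex 2, the source of the H3K27me3 mark on silenced genes. The iNKT cells were sorted on the T cell receptor beta chain and a CD1d tetramer loaded with PBS-57, and the CD44hi cells on CD4, CD44 and the same receptor chain. The labels used here give no age, no number of mice and no word on iNKT cells within the CD44hi gate.

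Proteins of this family pair a BTB domain, through which they dimerise and recruit corepressors such as NCOR and histone deacetylases, with C2H2 zinc fingers that read DNA. Several act as switches of lymphocyte fate. ThPOK, encoded by Zbtb7b, commits thymocytes to the CD4 lineage and restrains the CD8 programme, and the related LRF, encoded by Zbtb7a, acts beside it. Other members bind methylated DNA, partner with MYC or act outside T cells.

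The unit throughout is FPKM, fragments scaled to transcript length and to library size. Libraries are always listed in the order WT iNKT, KO iNKT, WT CD44hi, KO CD44hi. A gene counted as measured in a comparison when either library reached 1 FPKM, and as called at a 2-fold difference of FPKM + 1. Each group is 1 library, so differences between groups could not be set against a spread between replicates and none was tested. Intervals beside ratios of FPKM are 95% exact (Clopper-Pearson) intervals from estimated fragment numbers and cover counting error only.

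The libraries differed in depth, and relative to WT iNKT the estimated fragment number was 1.09 for KO iNKT, 3.72 for WT CD44hi and 4.96 for KO CD44hi. One fragment in a transcript of 2 kb was worth 0.110, 0.1002, 0.0294 and 0.0221 FPKM. Ezh2 itself was at 15.3, 16.8, 28.9 and 18.5 FPKM, a value over the whole gene that does not check the deletion of a floxed part. The 10 T cell markers summed to between 2310 and 3525 FPKM in every library. Summed markers of B cells, plasma cells, dendritic cells, monocytes and macrophages, red cells and CD8 T cells were higher in both CD44hi libraries than in both iNKT libraries, and highest in KO CD44hi. The 5 NK cell markers summed to 180, 193, 29.9 and 66.8 FPKM and did not share 1 order. Klrb1c, also used as an iNKT marker, gave 177, 96.2, 14.9 and 58.5 FPKM of these sums, and Gzma gave 89.0 in KO iNKT. Ncr1, Gzma and Eomes were higher in WT CD44hi than in WT iNKT, while Klrb1c and Klra8 were lower. Y-linked Eif2s3y was at 22.7 FPKM in WT CD44hi and listed at 0 in the other libraries, while Xist, which is transcribed in female cells, was at 55.3, 76.8, 46.8 and 80.0 FPKM, so WT CD44hi held RNA of both kinds.

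Most of the family was expressed in every library. Of the 36 members, 30 reached 1 FPKM in all 4 libraries and 34 in at least 1. Zbtb7c and Zbtb8b stayed under 1 FPKM in all of them. The summed level of the family was 268.7, 269.6, 343.2 and 308.3 FPKM. In 18 members the highest library was within 1.5-fold of the lowest, and the share of all genes for which this held was not counted. Zbtb8a was the most even, at 2.29, 2.39, 2.31 and 2.24 FPKM.

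**Figure D1:**
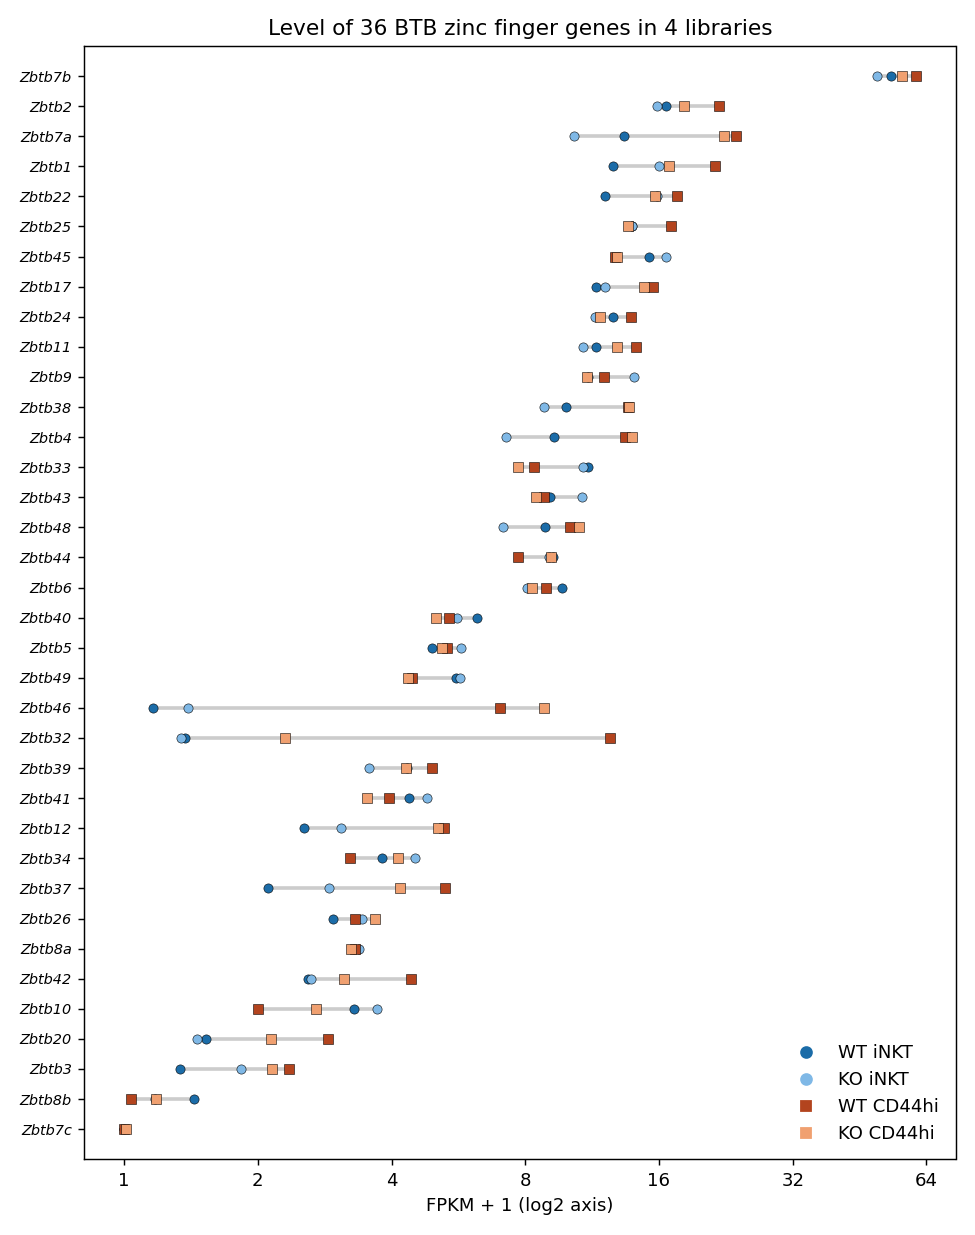
Level of each of the 36 members in the 4 libraries, as FPKM + 1 on a log2 axis, with circles for iNKT, squares for CD44hi and a grey line from the lowest to the highest library. Zbtb7b lies alone at the right, between 48.4 and 59.6 FPKM, and the lines of Zbtb32 and Zbtb46 span the widest ranges.

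Promoter sequence was compared because Polycomb complexes are known to act at CG-rich promoters. RefSeq (GRCm38.p6) gave 300-base windows, 250 bases before to 50 after a start site, for 32 members. The Zbtb46 window was not used, since its start site is the first base of a later exon in GENCODE transcripts of the gene. In the remaining 31 members, taking the window with the most CG dinucleotides, the median was 29 CG, beside 22 over the 8368 genes with a window that reached 1 FPKM in some library. The observed over expected CG ratio was at least 0.6 in 26 of these 31 members (83.9%), beside 75.7% of those genes. The counts ran from 3 CG in Zbtb20 to 51 in Zbtb25. The sequences below show this contrast. They belong to members called in a comparison and to the abundant Zbtb7b, and only windows whose 250 upstream bases share none with an annotated exon were printed. They are given 5′ to 3′ on the gene's strand, without the 50 bases after the start, and capitals mark CG dinucleotides.
Zbtb32, chr7:30598910-30599159, minus strand: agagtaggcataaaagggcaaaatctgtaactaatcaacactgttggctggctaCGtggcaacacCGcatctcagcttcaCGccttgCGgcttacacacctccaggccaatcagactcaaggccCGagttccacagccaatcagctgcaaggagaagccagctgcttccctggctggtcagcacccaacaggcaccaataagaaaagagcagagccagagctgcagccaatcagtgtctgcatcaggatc
Zbtb7b, chr3:89387672-89387921, minus strand: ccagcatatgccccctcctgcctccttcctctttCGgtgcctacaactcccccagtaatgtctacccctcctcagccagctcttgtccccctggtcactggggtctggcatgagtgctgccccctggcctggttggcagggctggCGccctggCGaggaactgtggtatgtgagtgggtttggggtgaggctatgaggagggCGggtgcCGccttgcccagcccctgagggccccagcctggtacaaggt
Zbtb7a, chr10:81136021-81136270, plus strand: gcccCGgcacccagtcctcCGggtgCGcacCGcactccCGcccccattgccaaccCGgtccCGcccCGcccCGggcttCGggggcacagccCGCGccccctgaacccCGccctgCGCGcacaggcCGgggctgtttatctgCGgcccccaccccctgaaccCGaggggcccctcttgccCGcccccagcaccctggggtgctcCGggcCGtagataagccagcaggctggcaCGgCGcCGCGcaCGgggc
Zbtb12, chr17:34894309-34894558, plus strand: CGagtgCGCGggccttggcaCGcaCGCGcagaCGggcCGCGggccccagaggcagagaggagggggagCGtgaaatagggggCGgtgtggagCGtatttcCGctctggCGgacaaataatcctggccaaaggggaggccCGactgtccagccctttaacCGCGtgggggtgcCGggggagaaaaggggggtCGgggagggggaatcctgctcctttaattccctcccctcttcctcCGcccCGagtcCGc
These stretches hold 5 CG in Zbtb32, 5 in Zbtb7b, 26 in Zbtb7a and 22 in Zbtb12. Zbtb32 and Zbtb7b each have another annotated start, and no window of either reached the ratio of 0.6. The Zbtb32 stretch holds CCAAT 4 times, counting both strands. Of the 38 windows of members, 13 hold CCAAT, a motif in 37.4% of the 32560 windows of all genes, and 3 hold it at least 4 times, beside 1.06% of all windows. The TATA motif TATAAA was in 1 member window (13.6% of all windows) and the E-box CACGTG in 5 (7.17%). Overlapping windows of the same gene were counted separately, those of Zbtb3 for CCAAT and of Zbtb25 for CACGTG. These matches are letters in a window and not measured binding.

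Zbtb7b was the most abundant member in every library. This gene, at chr3:89377644-89394776 on the minus strand of GRCm38, was at 52.2, 48.4, 59.6 and 55.3 FPKM. The KO library was the lower in each cell type, by nearly the same proportion. The ratio of KO to WT was 0.928 in iNKT (0.847 to 1.02) and 0.927 in CD44hi (0.889 to 0.968), and only the deeper CD44hi pair differed beyond counting error. When libraries were instead scaled to equal geometric means of the T cell genes Cd3d, Cd3e, Cd3g, Lck and Lat, the iNKT difference changed sign, from -0.11 to 0.12 on the log2 scale. The ratio of iNKT to CD44hi was 0.875 in WT (0.814 to 0.941) and 0.876 in KO (0.816 to 0.940). Zbtb7b exceeded the next member by 3.34, 3.10, 2.61 and 2.58 times and made up 17.4% to 19.4% of the summed family level. Among genes at 1 FPKM or more it stood at percentiles 87.7, 86.9, 90.2 and 89.4. Its exons share 116 bases with Gm15417 on the other strand, which was at 2.61, 1.74, 0.708 and 1.07 FPKM.

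The other regulator of this pair, Zbtb7a, separated the cell types more than the genotypes. Zbtb7a (chr10:81135220-81152995, plus strand) was at 12.3, 9.32, 22.8 and 21.4 FPKM. Both CD44hi libraries lay above both iNKT libraries. The ratio of CD44hi to iNKT was 1.85 in WT (1.65 to 2.08) and 2.30 in KO (2.03 to 2.61). On log2(FPKM + 1), iNKT was lower by 0.84 in WT, short of a call, and by 1.12 in KO, a call that was lost at 0.99 when libraries were scaled to T cell genes. WT iNKT exceeded KO iNKT by 1.32 times (1.13 to 1.56), and WT CD44hi exceeded KO CD44hi by 1.06 times (1.01 to 1.12). Both shrank with scaling to T cell genes. On the log2 scale KO minus WT went from -0.37 to -0.16 in iNKT and from -0.087 to -0.047 in CD44hi, and no interval was computed at that scaling. Zbtb7c, the remaining gene of this subgroup, was listed at 0 in 3 libraries and at 0.00905 FPKM in KO CD44hi. The proteins of Zbtb7a, Zbtb7b and Zbtb7c each gave 3 matches to a C2H2 zinc finger pattern (C, 2 to 4 residues, C, 12 residues, H, 3 to 5 residues, H). Across the family the matches ran from 1 to 14, in proteins of 420 to 1258 residues.

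Zbtb32 was the member with the largest genotype difference, and it was seen in CD44hi cells. Zbtb32 (chr7:30589681-30598909, minus strand), also known as PLZP or ROG, is a repressor that restrains T cell activation and cytokine genes. It was at 0.370, 0.342, 11.4 and 1.31 FPKM. WT CD44hi alone was high, and the 3 other libraries were near or under 1 FPKM. WT CD44hi exceeded KO CD44hi by 8.74 times (6.56 to 12.02), from an estimated 344 and 52 fragments. In iNKT cells about 3 fragments in each library gave a KO to WT ratio of 0.925 (0.122 to 6.82), so a difference of several fold in either direction was not detectable there. WT CD44hi exceeded WT iNKT by 30.9 times (10.5 to 150), and KO CD44hi exceeded KO iNKT by 3.82 times (1.24 to 19.2). WT CD44hi is also the library with Y-linked RNA, and the part of donor sex in this result was not tested. Zbtb32 ranked number 13 in the family in WT CD44hi and number 32 in KO CD44hi.

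In these bulk libraries, fewer cells that contain Zbtb32 RNA and less of it per cell cannot be told apart. Foxp3, the transcription factor of regulatory T cells, picked for comparison after its values were seen, was at 0.446, 0.115, 53.8 and 13.4 FPKM, and was 4.01 times higher in WT CD44hi than in KO CD44hi (3.75 to 4.29). Memory B cells and plasma cells can also contain Zbtb32 RNA. The summed B cell markers were 64.8 FPKM in WT CD44hi and 108 in KO CD44hi, higher in KO for 8 of 10 genes, and the 4 plasma cell markers in the files summed to 81.3 and 215, all 4 being higher in KO. The B lineage sums thus ran opposite to Zbtb32, and Foxp3 ran with it; the part of either in the result was not tested.

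Zbtb46 and Zbtb32 separated the cell types most widely in WT. On log2(FPKM + 1), WT iNKT was lower than WT CD44hi by 2.59 for Zbtb46 and by 3.18 for Zbtb32. Zbtb46 (chr2:181387762-181459426, minus strand) marks classical dendritic cells and their committed precursors. It was at 0.163, 0.396, 6.01 and 7.81 FPKM. Both CD44hi libraries lay far above both iNKT libraries, which rested on 2 and 5 estimated fragments. The CD44hi to iNKT ratio was 36.8 in WT (8.60 to 261) and 19.7 in KO (7.60 to 55.4), and KO CD44hi exceeded WT CD44hi by 1.3 times (1.11 to 1.54).

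The dendritic cell markers followed the same order across the CD44hi libraries. All 7 conventional dendritic cell markers were higher in KO CD44hi than in WT CD44hi, and none was at 0 in either. Of these, Itgax (CD11c) was at 37.8 and 50.6 FPKM, Flt3 at 11.8 and 20.2, and Clec9a at 1.56 and 7.87 in WT and KO CD44hi. Their summed FPKM was 3.07, 7.85, 75.2 and 133. In iNKT, 2 of the 7 were at 0 in WT and 3 in KO, and 1 reached 1 FPKM in each library. In WT iNKT it was Xcr1, at 2.28 FPKM, which was above its level in WT CD44hi (0.679) and KO CD44hi (1.26). In KO iNKT it was Batf3, which alone made up 7.05 of the 7.85 FPKM. The summed plasmacytoid dendritic cell markers (8 genes) were 13.3, 30.8, 99.99 and 445 FPKM, of which Pacsin1 alone gave 11.9 in WT iNKT and 29.9 in KO iNKT, the single marker of the 8 at 1 FPKM there. Those of monocytes and macrophages (11 genes in the files) summed to 35.0, 17.4, 453 and 730. Their part in the Zbtb46 level was not tested.

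**Figure D2:**
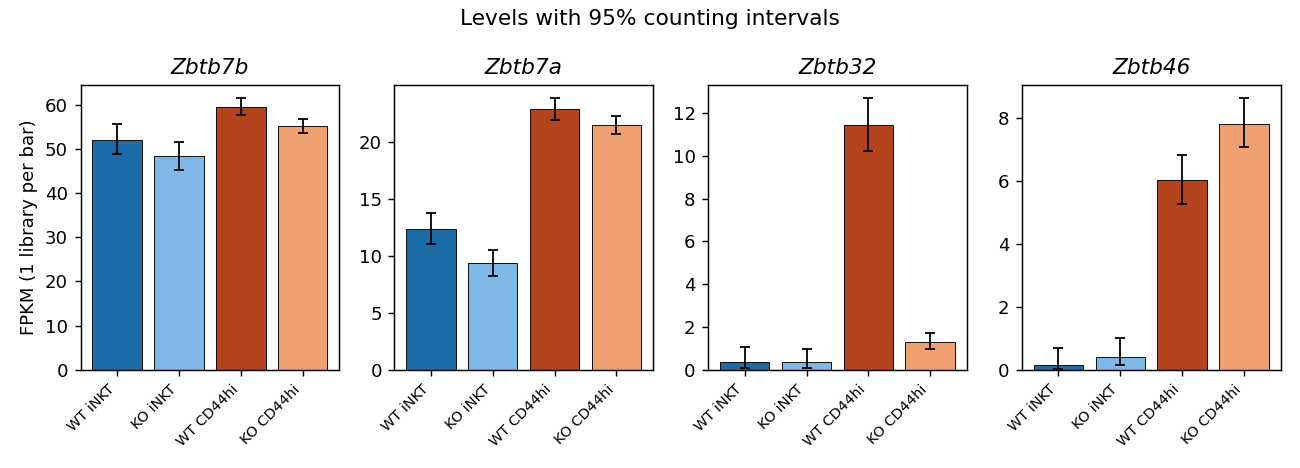
FPKM of Zbtb7b, Zbtb7a, Zbtb32 and Zbtb46, with 1 bar per library and error bars for the 95% counting interval of each level; each panel has its own axis from 0. Zbtb7b is nearly level, Zbtb7a is higher in both CD44hi libraries, Zbtb32 is high in WT CD44hi alone at 11.4 FPKM, and Zbtb46 is near 0 in both iNKT libraries.

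Of the members with known parts in development, Zbtb1, Zbtb17 and Zbtb25 were above 10 FPKM in every library and Zbtb20 was low. Zbtb1, which T cell development requires, was at 11.6, 15.0, 20.4 and 15.8 FPKM. The KO library was higher in iNKT, at 1.29 times WT (1.17 to 1.43), and lower in CD44hi, at 0.776 times (0.744 to 0.810). Zbtb17, encoding MIZ-1, a MYC partner that early T and B cell progenitors need, was at 10.5, 11.1, 14.6 and 13.8 FPKM. Zbtb25, which lies head to head with Zbtb1 on chromosome 12 at a gap of 664 bases, was at 12.9, 12.9, 16 and 12.6 FPKM. Its iNKT libraries were level where those of Zbtb1 were not, while WT CD44hi was the highest library for both genes. Zbtb20, a repressor best known in liver and brain, was at 0.527, 0.462, 1.88 and 1.14 FPKM. Its CD44hi levels were above the iNKT levels, from 7 estimated fragments in each iNKT library, and it met no call.

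Zbtb33, Zbtb4 and Zbtb38 encode proteins that read methylated CG through their zinc fingers. Zbtb33 (Kaiso) was at 10.1, 9.82, 7.37 and 6.72 FPKM, and was among the 10 members above 0 in WT iNKT against WT CD44hi, by 1.37 times in WT (1.17 to 1.59) and 1.46 times in KO (1.26 to 1.69). Zbtb33 lies on the X chromosome. WT CD44hi held Y-linked RNA, as given above, and the part of donor sex in the WT comparison was not tested. Zbtb4 was at 8.28, 6.23, 12.4 and 12.9 FPKM and Zbtb38 at 8.88, 7.83, 12.6 and 12.7. Both were thus lower in iNKT in each genotype, opposite to Zbtb33, and none of the 3 met a call. Zbtb24, whose loss in humans causes a syndrome of immunodeficiency and centromere instability, was at 11.6, 10.5, 12.9 and 10.8 FPKM.

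The rest of the abundant members varied little. Zbtb2 was at 15.6, 14.9, 20.9 and 17.2 FPKM. Zbtb22, in the major histocompatibility region, was at 11.1, 14.8, 16.5 and 14.7 FPKM, and shares 149 exon bases with Tapbp on the same strand. Zbtb45 was at 14.2, 15.6, 11.7 and 11.9 FPKM and so slightly higher in iNKT. Zbtb11 was at 10.6, 9.79, 13.2 and 11.9 FPKM. None of these 4 reached a call in any comparison.

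In KO against WT iNKT, no member was called in either direction. Of 30 measured members 0 were higher and 0 lower, where 6.08% of 10817 measured genes were called higher and 3.34% lower. The median difference on log2(FPKM + 1) was 0.03 over the members, or -0.0067 under median ratio scaling, and 0.05 over all measured genes. Scaling to T cell genes moved the median of all genes to 0.26 and that of the members to 0.21, with 25 members above 0 and 5 below, against 17 and 13 as deposited. The differences of members ran from -0.37 for Zbtb7a to 0.46 for Zbtb37. All 30 lay within 1.5-fold, beside 77.1% of all measured genes. By counting interval, 3 members were higher and 2 lower in KO, and the share over all genes was not counted for this measure. None of the 6 members under 1 FPKM in WT iNKT (Zbtb3, Zbtb7c, Zbtb8b, Zbtb20, Zbtb32 and Zbtb46) reached 1 FPKM in KO iNKT. They rested on 0 to 8 estimated fragments in each iNKT library. The share of all genes under 1 FPKM in WT iNKT that reached it in KO iNKT was not counted.

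In KO against WT CD44hi, Zbtb32 was the single member called. It fell by 2.43 on the log2 scale, giving 1 of 34 measured members lower, where 1.14% of 11354 measured genes were called lower. Of the 34 members 0 were called higher, where 2.44% of genes were. The remaining 33 members lay within 1.5-fold, and 97.1% of members did so beside 90.1% of all measured genes. The median was -0.10 for members and 0.01 for all genes, with 9 members above 0 and 25 below. Outside Zbtb32 the lower values were small, such as -0.50 for Zbtb42 and -0.43 for Zbtb20, and the highest was 0.43 for Zbtb10. By counting interval 14 members were lower and 4 higher. The share over all genes was not counted for this measure, so these counts have no background beside them. Both CD44hi libraries were deep enough for small differences to leave the interval. Zbtb7c and Zbtb8b were under 1 FPKM in both CD44hi libraries.

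Between the cell types the genotype differences hardly ran together, over the members or over all measured genes. Of the 30 members measured in both, 4 were above 0 in both, 9 below 0 in both, 13 above 0 in iNKT and below in CD44hi, and 4 the reverse. The share of all genes with each pair of signs was not counted. With scaling to T cell genes, 25 of the 30 members were above 0 in iNKT. The genotype comparisons share no library. Pearson's r across the 30 members was -0.02, beside 0.10 across 10454 genes measured in both; genes are not independent replicates and no p was computed. The difference of the genotype differences, iNKT minus CD44hi, was at least 1 for 1 of 34 members, Zbtb32 at 2.40, where 6.15% of 11717 genes were at or above 1. No member was at -1 or below, where 5.37% of genes were. The median over the members was 0.09 and over all genes 0.03.

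**Figure D3:**
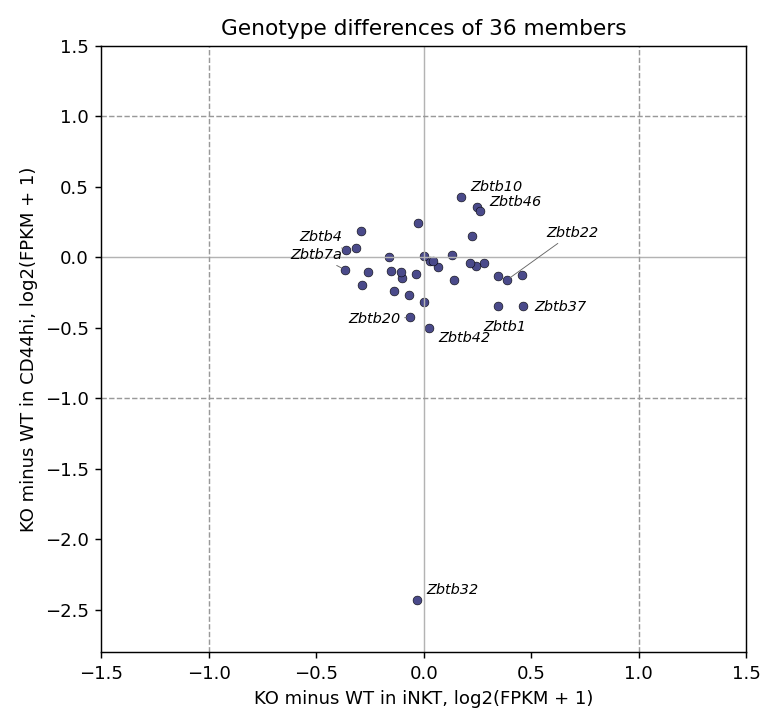
Difference of log2(FPKM + 1) between KO and WT in iNKT (horizontal) and in CD44hi (vertical), 1 point per member for all 36; dashed lines mark a 2-fold difference. Zbtb32 lies alone at -2.43 on the vertical axis and near 0 on the horizontal, and every other point lies inside the dashed square.

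Between the cell types in WT, the members that were called were all lower in iNKT, at a share near that of all genes. Zbtb12, Zbtb32, Zbtb37 and Zbtb46 made 4 of 34 measured members, where 10.9% of 11218 genes were called lower. No member was called higher, where 3.64% of genes were. The median was -0.19 for members and -0.06 for all genes, and 24 members lay below 0. Within 1.5-fold lay 70.6% of members, beside 70.7% of all measured genes. Zbtb37 was at 1.10, 1.90, 4.28 and 3.17 FPKM, with both CD44hi libraries above both iNKT libraries and a WT ratio of CD44hi to iNKT of 3.87 (2.41 to 6.29). Its exons share 2942 bases with Serpinc1 on the other strand, a liver gene listed at 0.198, 0.275, 1.23 and 0.788 FPKM, and with a kit that does not mark strand the 2 genes' reads cannot be told apart. Zbtb12 was at 1.54, 2.09, 4.25 and 4.09 FPKM, a WT ratio of 2.75 (1.56 to 5.33) from 13 and 134 estimated fragments, and shares 161 exon bases with C2 on the other strand.

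Between the cell types in KO, Zbtb7a and Zbtb46 were called lower in iNKT, 2 of 34 measured members, where 9.07% of 11471 genes were. No member was called higher, where 3.02% of genes were. The median was -0.08 for members and -0.02 for all genes, with 13 members above 0 and 21 below. Within 1.5-fold lay 82.4% of members, beside 73.5% of all measured genes. Scaling to T cell genes moved the median of all genes to 0.11 and that of members to 0.04, with 18 above 0 and 16 below. Of the 34 members, 19 were below 0 and 8 above 0 in both genotypes. These cell type comparisons share no library, and r across the 34 members was 0.77, beside 0.65 across 10972 genes, again as a description. The 4 members Zbtb3, Zbtb20, Zbtb32 and Zbtb46 stayed under 1 FPKM in both iNKT libraries and passed it in both CD44hi libraries. The share of all genes that did so was not counted. Zbtb3 was near the limit, at 0.837 FPKM in KO iNKT and 1.16 in KO CD44hi. In KO CD44hi, Zbtb20 at 1.14 FPKM and Zbtb32 at 1.31 passed it narrowly.

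The closest relatives, BTB zinc finger genes filed under other symbols, held 1 genotype call. Of 11 such genes, 9 were measured in each genotype comparison. Zfp238, an older symbol of Zbtb18, was at 7.12, 20.1, 12.4 and 17.0 FPKM and was called higher in KO iNKT. Of all measured genes, 6.08% were called higher and 3.34% lower in that comparison. In CD44hi none of the 9 was called, where 2.44% of all measured genes were called higher and 1.14% lower. Bcl6, the master regulator of follicular helper T cells, was at 5.59, 10.8, 24.1 and 14.5 FPKM. It was called lower in WT iNKT than in WT CD44hi, where 10.9% of all measured genes were. Patz1, encoding MAZR, a repressor of ThPOK in CD8 thymocytes, was at 14.4, 19.2, 11.98 and 12.9 FPKM and met no call.

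The corepressors and partners that this family works through were not called between genotypes. Of 22 listed genes, 21 were measured in iNKT and 22 in CD44hi, with 0 called in either, where 6.08% of all measured genes were called higher and 3.34% lower in iNKT, and 2.44% and 1.14% in CD44hi. Their medians were 0.15 in iNKT and 0.01 in CD44hi, beside 0.05 and 0.01 for all genes. Among the most familiar, Ncor1 was at 37.4, 35.9, 59.3 and 50.9 FPKM and Hdac3, the deacetylase of the NCOR complex, at 33.6, 39.0, 32.3 and 35.0.

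Genes around ThPOK held several calls in KO iNKT, where Zbtb7b was at 0.928 times its WT level. Of 12 regulators and markers of the CD4 and CD8 lineages, 10 were measured in KO against WT iNKT. Tox, Myb, Tcf7 and Lef1 were called higher and Runx3, the transcription factor of the CD8 lineage that opposes ThPOK, was called lower. Runx3 was at 24.8, 10.7, 30.1 and 31.3 FPKM, so KO iNKT was the low library, and WT iNKT exceeded it by 2.31 times (1.96 to 2.74). In CD44hi 0 of 12 were called. Of 9 genes reported as ThPOK targets, 7 were measured in iNKT; Runx3, Prf1, Gzmb and Cish were called lower in KO and Eomes higher, with a median of -1.14, beside 0.05 over all measured genes, of which 6.08% were called higher and 3.34% lower. In CD44hi, Gzmb and Cish were called lower of 9, with a median of -0.64, beside 0.01 over all measured genes, of which 1.14% were called lower. Runx3, Cd4, Cd8a and Cd8b1 stand in both lists.

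Genes listed beside Zbtb24 and Zbtb17 also held calls in KO iNKT, where 6.08% of all measured genes were called higher and 3.34% lower. Of 3 genes listed as partners of Zbtb24 in centromere instability, Cdca7 and Hells were called higher in KO iNKT. Cdca7 was at 4.58, 19.6, 7.28 and 9.29 FPKM and Hells at 5.84, 13.2, 7.91 and 7.89. Dnmt3b, the other gene of this list, was at 6.48, 5.44, 2.50 and 3.71 FPKM, slightly lower in KO iNKT and not called between genotypes. Zbtb24 was at 11.6 and 10.5 FPKM in the same iNKT libraries. Among 11 partners and targets of MYC and MIZ-1, 10 were measured in iNKT. Bcl2, a survival gene, was the single call in KO iNKT, at 23.6 FPKM in WT and 6.31 in KO, and none was called in CD44hi. A list of 7 genes held readers of methylated CG and Ctnnd1, encoding p120 catenin, a binding partner of Kaiso. Of the 6 measured in iNKT, Uhrf1 was called higher in KO, at 6.14 FPKM in WT and 25.6 in KO, and none of 7 was called in CD44hi. The 4 BTB genes without zinc fingers gave no call in either genotype comparison, with 3 measured.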

How the data were processed

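RNA was measured in 4 libraries, 1 per group, so that no test across replicates was possible. The authors deposited 1 FPKM value per gene symbol and library, per the file headers. Cufflinks 2.0.2, TopHat 1.3.2, Bowtie2 2.0.0 and the build mm10 appear in the submitters' processing notes, with no order; the annotation, filters and strand setting are not given in the sources used here. The TruSeq kit named in the labels does not mark strand. Rows sharing a symbol were summed (240 symbols), and 26 date-like symbols and 780 small RNA symbols were left out. Members still filed under older symbols (Zfp161, Zfp238, Zfp295) do not meet the member rule.

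Differences were taken on log2(FPKM + 1), a scale that understates the change of low genes; a gene was measured at 1 FPKM or more in either library and called at a 2-fold difference. Relative depth was derived from the smallest FPKM increments of 2742 genes with GENCODE M21 exon lengths, and the intervals rest on those lengths. The calculations were tested on simulated data. Members and gene lists were chosen with earlier results of these data known. Values in all libraries are given for called members and for the 10 with the highest mean FPKM. They are also given for Zbtb7b, Zbtb7a, Zbtb32, Zbtb1, Zbtb17, Zbtb20, Zbtb24, Zbtb25, Zbtb33, Zbtb4, Zbtb38, Zbtb46 and Zbtb18. From each list up to 4 genes are named, and more from the lists around ThPOK. Of 32851 RefSeq promoter windows, 291 whose start is the first base of a later GENCODE exon were left out, a filter chosen after seeing the data. Zinc finger matches were counted in translated GENCODE transcripts. Alternatives were other pseudocounts, filters, folds and scalings. Python 3.11.15, pandas 2.3.3, numpy 2.4.6 and scipy 1.17.1 were used.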

Additional observations from a re-analysis of the deposited data

Results flagged for a closer look

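Zbtb1 and Zbtb22 differed in direction between the cell types, with both counting intervals excluding 1. For Zbtb1 the KO minus WT difference on log2(FPKM + 1) was 0.34 in iNKT and -0.35 in CD44hi, a difference of 0.69. For Zbtb22 these were 0.39 and -0.16, a difference of 0.55. With libraries scaled to T cell genes the Zbtb1 values were 0.56 and -0.31, and the Zbtb22 values 0.60 and -0.12. That scaling raised the iNKT values of both genes, that of Zbtb1 by more than its counting error. No interval was computed at that scaling. Zbtb22 also shares 149 exon bases on the same strand with Tapbp, which was at 172.5, 193.9, 122.3 and 132.6 FPKM. Both genes were picked by this rule from all 36 members. With 1 library per group, neither difference was tested.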

How the results depend on the processing

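Zbtb32 was called lower in KO CD44hi under all 8 alternatives, and no member was called in KO iNKT under any of the 8. Of 32 alternative counts of called members 26 stayed within 1.5 times, 25 of 28 medians moved by less than 0.1, and no called member changed sign. The median of KO against WT iNKT lay near 0 and did change sign, from 0.03 to -0.07 at 5 FPKM or more and to -0.0067 under median ratio scaling. In WT iNKT against WT CD44hi, 4 members were called, but 8 with a pseudocount of 0.1, 10 with a 1.5-fold call and 2 at 5 FPKM or more, where the median moved to -0.29. Zbtb10 was called higher in WT iNKT with the pseudocount of 0.1 and with the 1.5-fold call, and the other calls were lower. In KO iNKT against KO CD44hi, 2 were called, but 5 with a pseudocount of 0.1, 6 with a 1.5-fold call and 1 with scaling to T cell genes (Zbtb46), where the median changed sign, from -0.08 to 0.037. With the same scaling the median of KO against WT iNKT moved to 0.21. By its construction a lower pseudocount raises the differences of low genes. No paired analysis was possible because each group is 1 library with no replicate number, and for the same reason no library could be left out. The shallower iNKT libraries limit members under 1 FPKM, where a few fragments carry the value.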
